A study of Mus musculus with 38 samples.

Results

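Skeletal muscle contractile genes are the genes for the proteins with which striated muscle fibres shorten and for their energy supply. The 10 genes described here are Myh1, Myh2, Myh4 and Myh7 (myosin heavy chains), Mylpf (a myosin light chain), Acta1 (the actin of skeletal muscle thin filaments), Tnnt3 and Tnnc1 (troponin subunits), Actn3 (a Z disc protein) and Ckm (muscle creatine kinase). They were found by gene name among the non-control probes of the array, which gave 10 of 29353 named genes and 16 of 40628 probes. The 10 genes were chosen from the levels they show on these same arrays, so their levels are described here without a test and support nothing on their own. A level is the log2 processed signal of a probe minus the log2 of the 75th percentile of signal of its array, so that 0 is the 75th percentile. Where a gene has several probes, the probe of highest mean level stands for it.

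Messenger RNA was measured on 38 arrays of stromal vascular cells (what remains of fat tissue once adipocytes are removed) from epididymal fat of C57BL/6J mice, which the labels call infiltrating macrophages. The low fat control diet (LFC, 10 arrays) gave 10% of calories as fat, and the high fat control diet (HFC, 10 arrays) was a diet with more sucrose and 60% of calories as fat. The groups HF5, HF20 and HF75 (6 arrays each) ate that HFC diet and were given KAL-1, a botanical formulation, at 5, 20 or 75 µg. LFC and HFC were sampled on days 6, 10 and 14 (D6, D10, D14) and in weeks 0, 3, 6, 9, 12, 15 and 18 (W0 to W18), and the dosed groups from week 3. A paper that used liver arrays of the same study counts the weeks from day 14. On that count D14 and W0 both fall on day 14, and W6 falls on day 56. D14 and W0 are kept here as separate time points. All mice entered their diets after weaning, at 3 to 4 weeks of age. Per the labels, 5 animals of a group were killed every 3 weeks, and whether their RNA was pooled is not given in the sources used here. The design text speaks of 3 biological replicates, but 1 array for each diet and time point was analysed here. Each array is named by its diet and time point. Any p-value therefore measures the spread between time points and not between animals of one time point.

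In muscle, myosin heads of the thick filament pull on actin of the thin filament when calcium binds troponin, and creatine kinase restores the ATP used. Fast fibres carry the myosins Myh1, Myh2 and Myh4, the troponin subunit Tnnt3, the light chain Mylpf and Actn3, while slow fibres carry Myh7 and Tnnc1, which the heart also uses. Acta1 and Ckm are made by both fibre types. Macrophages, endothelial cells and preadipocytes are not known to build sarcomeres. In bulk RNA of a tissue, a difference in the number of muscle cells and a difference in RNA per cell cannot be told apart.

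The array probes are 60 bases long, and the myosin heavy chains are close relatives, so the probe sequences of members were compared with each other. Whether a probe matches the transcript of another gene was not examined, so the comparison does not show how far apart the readouts are. For Myh1, Myh2 and Myh4 the probe printed is not the one that stands for the gene. In the following probes, written 5′ to 3′ as the array design gives them, capitals mark the longest run that is also present in a probe of another of the 10 genes.
Myh1 probe: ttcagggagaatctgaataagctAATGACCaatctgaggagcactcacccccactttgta
Myh2 probe: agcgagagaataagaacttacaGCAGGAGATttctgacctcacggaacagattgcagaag
Myh4 probe: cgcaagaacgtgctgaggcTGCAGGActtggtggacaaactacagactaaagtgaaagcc
Tnnt3 probe: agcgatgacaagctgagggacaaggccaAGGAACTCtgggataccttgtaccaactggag
Mylpf probe: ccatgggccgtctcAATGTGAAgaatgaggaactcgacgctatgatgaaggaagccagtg
Actn3 probe: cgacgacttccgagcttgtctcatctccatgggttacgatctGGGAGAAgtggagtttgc
Acta1 probe: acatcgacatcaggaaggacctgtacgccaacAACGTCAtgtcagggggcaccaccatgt
Ckm probe: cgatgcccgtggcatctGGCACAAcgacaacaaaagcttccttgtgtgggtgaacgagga
Tnnc1 probe: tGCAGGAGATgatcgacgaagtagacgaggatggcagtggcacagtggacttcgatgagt
The longest run shared between probes of different members was 12 bases, between 1 probe of Myh2 and 1 of Myh4, and no other probe shared a run of more than 9 bases with another member. The 2 probes of Myh7 overlapped each other by 55 bases and are close to 1 measurement.

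Macrophage genes were present in these samples. All 10 macrophage genes listed were well above background on at least 35 of 38 arrays. Median levels were 6.05 for Lyz2 (lysozyme of macrophages), 2.32 for Emr1 (a macrophage surface receptor) and 0.53 for Cd68. Lyz2 was saturated on 24 arrays, so its median is a lower bound. The mean level of the macrophage list ran from 0.83 to 2.66 on the 11 arrays with high contractile genes named below and from -0.28 to 3.40 on the other 27. Adipocyte genes were present as well: of the 9 listed, 8 were well above background on all 38 arrays, and the median over the 27 arrays of their mean level was 2.38.

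The 10 contractile genes were not at background in most of these samples. Passing was common for any probe: 41.1% (HF5 W12) to 91.2% (HFC W12) of all probes were well above background on an array. Acta1, Mylpf and Myh2 were well above background on all 38 arrays, Actn3 on 37 and Tnnc1, the least often, on 30. Myh4 was well above background on 33 arrays and Ckm on 32. A gene is called high on an array where it was well above background and at least 2 log2, or 4-fold, above its own median over the 38 arrays. Tnnt3 was high on 11 arrays, Myh4 on 14, Mylpf on 10 and Ckm on 9, while Acta1 was high on 2. Myh1, Myh2 and Actn3 were high on 7, 6 and 5 arrays, and the slow genes Myh7 and Tnnc1 on 4 each.

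**Figure D1:**
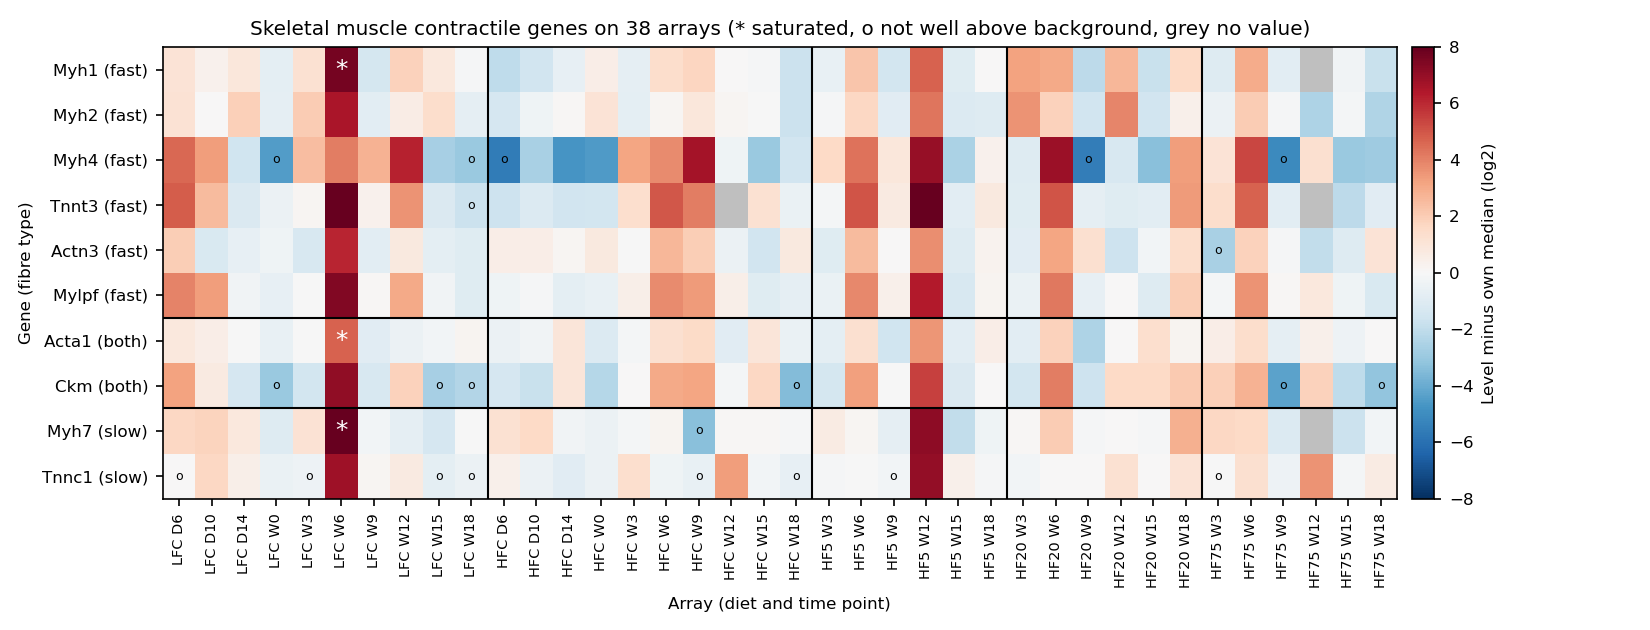
Level of each contractile gene (rows) on each array (columns, by diet and time point) as the log2 difference from the gene's own median over 38 arrays. Every gene is red on LFC W6 and HF5 W12, while the other week 6 arrays are red for fast fibre genes and mostly pale for Myh7 and Tnnc1.

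At least 3 of the 10 genes were high together on 11 arrays. All 10 were high on LFC W6, where 4.25% of all measured probes were high, and on HF5 W12, where 8.03% were. The other arrays of week 6 followed with 7 genes on HF20 W6 (2.65% of all probes), 6 on HF5 W6 (2.82%), 6 on HF75 W6 (1.84%) and 5 on HFC W6 (3.03%). Outside week 6 there were 4 genes on LFC D6 (5.95%), 4 on HFC W9 (2.57%), 4 on HF20 W18 (5.97%), 3 on LFC D10 (5.84%) and 3 on LFC W12 (3.59%). LFC W3, HF20 W3 and HF20 W12 lay just outside with 2 genes each. The remaining 24 arrays had at most 1. The genes were chosen from these levels, so the counts describe where they were high and are not evidence that they stand apart from other probes.

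The fast myosin heavy chains differed in how widely they moved. Myh4, the myosin of the fastest fibres, had the widest range of the fast genes, from -8.11 on HFC D6 to 4.43 on HF5 W12. Its lowest, median and highest levels were -7.01, 0.09 and 3.66 in LFC and -8.11, -4.58 and 4.16 in HFC. They were -5.04, -1.27 and 4.43 in HF5, -8.07, -3.70 and 4.29 in HF20 and -7.64, -3.39 and 2.84 in HF75. The ranges of all 5 diets overlapped. Within week 6 the level of Myh4 was 1.57 in LFC, 1.24 in HFC, 1.80 in HF5, 4.29 in HF20 and 2.84 in HF75. LFC W6 was thus not the highest array for this gene, unlike for the other fast genes, and Myh4 was higher on LFC W12 (3.66) and HFC W9 (4.16). On 5 arrays Myh4 was not well above background: LFC W0, LFC W18, HFC D6, HF20 W9 and HF75 W9. Its 2 probes ran together over the 38 arrays with a Pearson correlation of 0.98.

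Myh1 and Myh2, the myosins of the intermediate fast fibres, peaked on LFC W6, at 6.22 and 5.33. Myh1 is saturated there, so its level is a lower bound. These values lay 7.64 and 6.52 log2 above each gene's own median. On HF5 W12 the deviations were 4.72 for Myh1 and 4.31 for Myh2. Both were also high on HF20 W3 (3.20 and 3.59 log2 above their medians) and HF20 W12 (2.64 and 3.92), where no other of the 10 genes was high and 3.62% and 12.5% of all probes were. The probes of these genes did not give one picture on those 2 arrays. The probe of Myh1 printed above was 0.38 and 1.12 log2 above its median there, and the probe of Myh2 printed above 1.80 and 0.66, all under the limit for high. Of 37 arrays with a value, 17 and 26 had them well above background. On LFC W6 the same probes were 8.04 and 8.60 above their medians and did not disagree with the others. Over all arrays the correlation between probes was 0.73 for Myh1 (36 arrays) and 0.79 for that probe of Myh2 against the representative one (37 arrays).

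Tnnt3, the troponin T that ties fast troponin to tropomyosin, was high on those 11 arrays and on no other array with a value. It is one of the genes that define the 11, and LFC D10 and LFC W12 reach 3 genes only with it. Its lowest, median and highest levels were -5.02, -3.04 and 4.92 in LFC, -4.97, -3.85 and 1.67 in HFC, -4.13, -2.55 and 4.80 in HF5, -4.30, -4.09 and 1.69 in HF20, and -5.44, -4.15 and 1.40 in HF75. In week 6 it stood at 4.92 in LFC and between 1.40 and 1.71 in the 4 high fat groups, which lay within 0.31 log2 of each other. No Tnnt3 value of this probe was kept on HFC W12 and HF75 W12, where its spot was marked as an outlier.

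Mylpf, the regulatory light chain of fast myosin, and Actn3, which crosslinks actin at the Z disc of fast fibres, followed the same arrays. Mylpf reached 4.84 on LFC W6 and 3.81 on HF5 W12, and lay between 1.07 and 1.71 on the 4 other week 6 arrays against a median of -2.54 over all arrays. Actn3 reached 4.11 on LFC W6 and 1.72 on HF5 W12, and lay between -0.10 and 1.17 on the other week 6 arrays against a median of -1.97. Week 6 was the highest of weeks 3 to 18 in 4 of 5 diets for Tnnt3, Actn3 and Mylpf alike, and the exception was HF5, where week 12 was higher. For Tnnt3 this rests on 5 weeks with a value in HFC and in HF75.

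Acta1 is the actin of the thin filament. Other actin genes had higher median levels, 6.14 for Acta2, 3.39 for Actc1 and 3.04 for Actg2, against 1.65 for Acta1. Acta2 was saturated on 23 arrays, so its median is a lower bound. Whether transcripts of these other actin genes bind the Acta1 probe was not tested. That probe was well above background in every sample. Its lowest, median and highest levels were 0.72, 1.63 and 6.36 in LFC, 0.57, 1.43 and 3.21 in HFC, 0.03, 1.52 and 5.18 in HF5, -0.81, 1.77 and 3.52 in HF20, and 0.96, 1.85 and 3.06 in HF75. The value on LFC W6 was saturated and is a lower bound. On the 4 other week 6 arrays it was 1.31 to 1.87 log2 above its median, under the limit for high, although week 6 was the highest or the next to highest of weeks 3 to 18 in all 5 diets. Ckm, which buffers ATP in fast and slow fibres, was 7.10 log2 above its median on LFC W6, 5.49 on HF5 W12 and between 2.77 and 4.08 on the other week 6 arrays. Ckm was not well above background on 6 arrays, among them LFC W0 and HF75 W9.

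The slow genes separated from the fast ones on most of these arrays. Myh7, the slow myosin heavy chain, had lowest, median and highest levels of -4.83, -3.13 and 6.18 in LFC, -6.87, -3.54 and -1.92 in HFC, -5.48, -3.62 and 3.64 in HF5, -3.64, -3.47 and -0.69 in HF20, and -5.26, -3.71 and -1.88 in HF75. LFC W6 stood 9.70 log2 above the median of Myh7, a lower bound since both of its probes were saturated there. HF5 W12 stood 7.15 log2 above it, or 142-fold. The highest of the other arrays was HF20 W18 at 2.83, and Myh7 was also high on HF20 W6 at 2.04. It lay 1.77 above its median on LFC D10, 1.65 on LFC D6 and 1.59 on HF75 W6. On HFC W6, HF5 W6 and LFC W12 Myh7 lay 0.19, 0.13 and -0.73 from its median. On HFC W9, where Tnnt3 was 4.11 and Myh4 6.68 log2 above their medians, Myh7 deviated by -3.35 from its own and was not well above background.

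**Figure D2:**
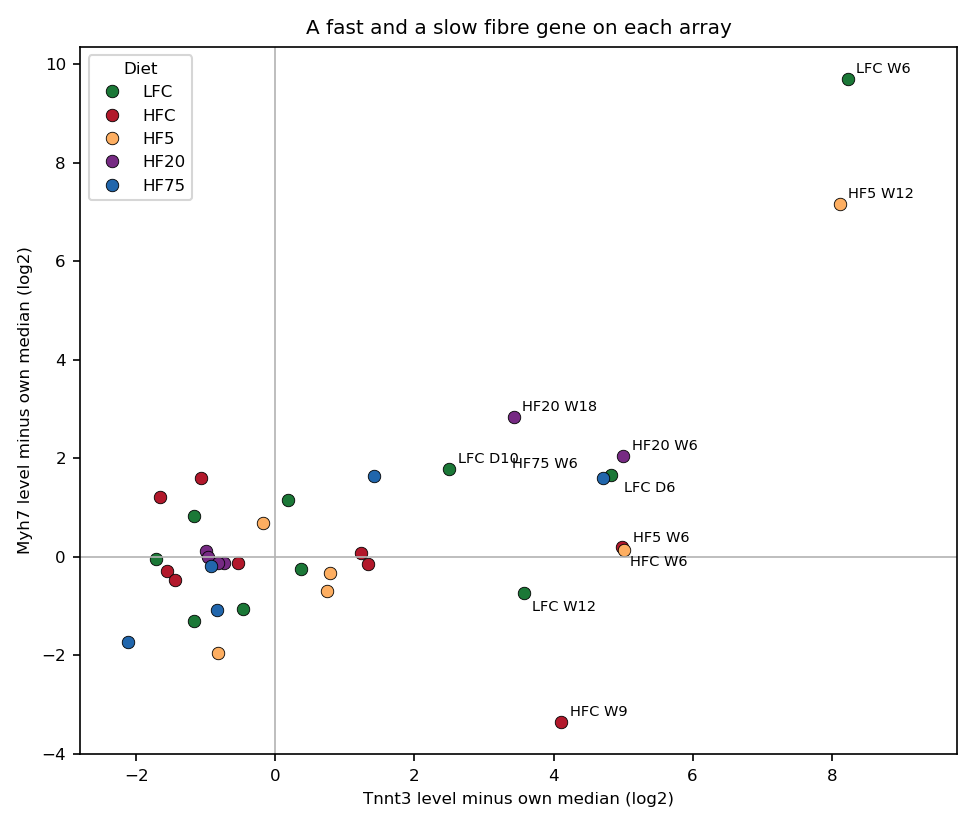
Level of Tnnt3 (x axis, fast fibres) and of Myh7 (y axis, slow fibres) on each array, each as the log2 difference from its own median. LFC W6 and HF5 W12 stand apart on both axes, while 9 labelled arrays spread along the Tnnt3 axis with Myh7 between -3.35 and 2.83.

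Tnnc1, the calcium sensor of slow and cardiac troponin, was 6.79 log2 above its median on LFC W6 and 7.06 on HF5 W12. It lay between -0.34 and 1.27 on the other 4 week 6 arrays, and week 6 was its highest week in LFC only. Tnnc1 was also high on HFC W12 (3.33) and HF75 W12 (3.56), where neither Myh7, on the first of them, nor any other member with a value was high. Those 2 arrays had 4850 and 6257 outlier spots, against at most 922 on any other, and 12.9% and 17.1% of all probes high. The part of these array properties in the Tnnc1 values was not tested. Tnnc1 was not well above background on 8 arrays, so its values near -5.5 lie close to the limit of detection.

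**Figure D3:**
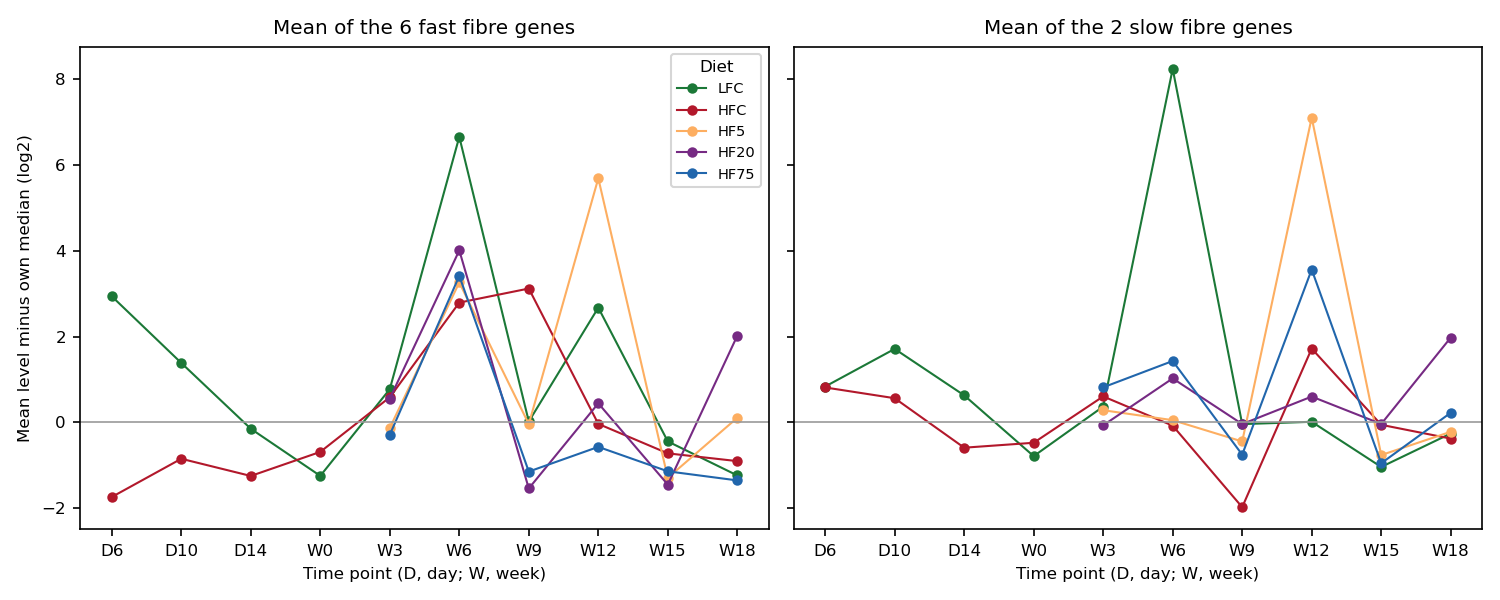
Mean over the 6 fast genes (left) and the 2 slow genes (right) of the log2 difference from each gene's own median, by time point (x axis) and diet (lines). The fast genes rise from week 3 to week 6 in all 5 diets, and of the 38 arrays only LFC W6 and HF5 W12 exceed 5 for the slow genes. Points of HFC W12 and HF75 W12 rest on the genes with a value there, which for the slow genes of HF75 W12 is Tnnc1 alone.

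As means over the genes, the fast genes lay 6.66 log2 above their medians on LFC W6 and 5.69 on HF5 W12. They lay 2.79 above on HFC W6, 3.26 on HF5 W6, 4.01 on HF20 W6 and 3.42 on HF75 W6, while the slow genes on those 4 arrays lay at -0.08, 0.05, 1.02 and 1.43. On LFC W6 the slow genes lay 8.24 above and on HF5 W12 7.11 above. LFC W6 and HF5 W12 thus carried slow and fast genes together. On the 4 other week 6 arrays the mean of the 2 slow genes deviated less than that of the fast genes, though Myh7 was high on HF20 W6 (2.04).

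Across arrays, the members moved together to different degrees, as a description over 38 arrays that share diets, time points and scan days. The median Pearson correlation was 0.73 over the 15 combinations of fast genes, 0.62 over the 12 combinations of a fast with a slow gene, and 0.81 between Myh7 and Tnnc1. LFC W6 and HF5 W12 carried much of this. Without them, over 36 arrays, the medians were 0.60 among fast genes and 0.18 between fast and slow genes, and Myh7 with Tnnc1 fell to 0.30. Without week 6 and HF5 W12, over 32 arrays, the median among fast genes was 0.36.

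The question the diets pose is whether contractile genes differed between low and high fat feeding. On day 6 the mean of the fast genes differed by -4.68 log2 (HFC minus LFC), and on day 10 by -2.23. In week 6 it differed by -3.86 and in week 12 by -2.53, but in week 9 by 3.10. At the other 5 time points the difference lay between -1.10 and 0.56. The mean over the 10 time points, with D14 and W0 counted apart, was -1.09 (SD 2.30, n = 10 time points). It was smaller than its spread, and HFC was lower at 7 of 10. Without D6 the mean was -0.69 and without W9 -1.55. The slow genes gave a mean of -0.95 (SD 2.80), of which week 6 alone made -8.32, and without that week it was -0.13 (SD 1.14, n = 9).

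**Figure D4:**
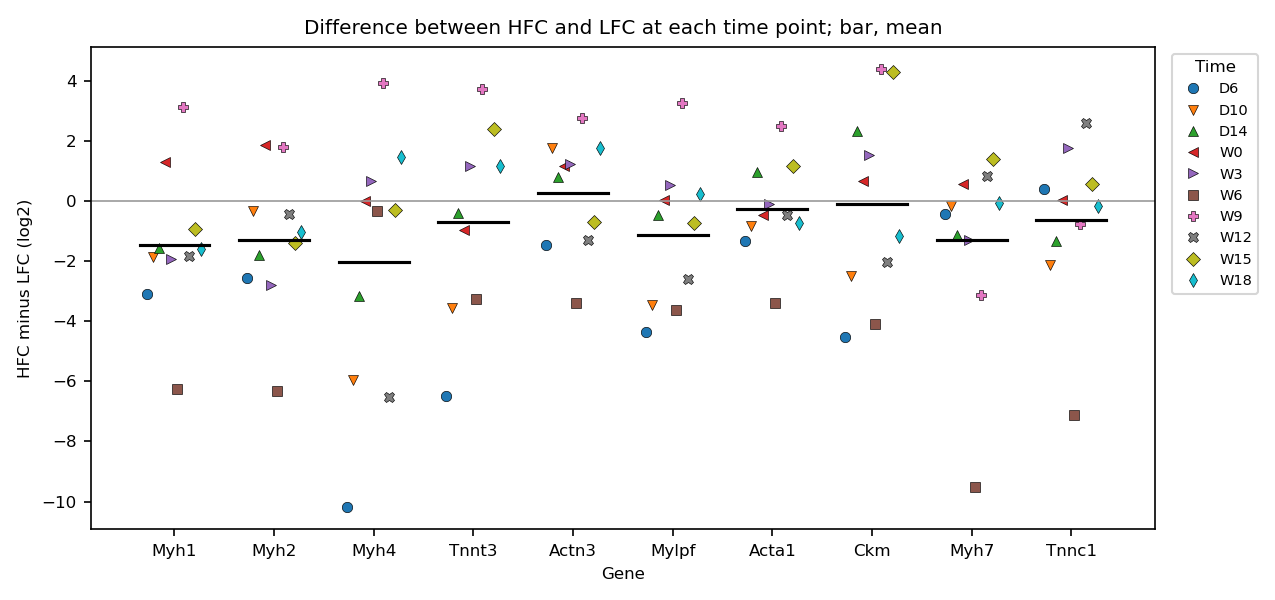
Difference between HFC and LFC (y axis, log2) for each contractile gene (x axis) at each time point (symbols), with the mean as a bar. Points lie on both sides of 0 for every gene, and the lowest points are Myh4 at D6 (-10.19) and Myh7 at W6 (-9.51).

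The limma fit over all probes with time point as a block called 0 of the 16 member probes between HFC and LFC, where 0% of the 31030 probes tested were called at an adjusted p under 0.05 (smallest adjusted p 0.546). At an unadjusted p under 0.05 there were 2813 probes in all and 0 of the 16, and the methods' t-test also called 0, with 1103 unadjusted. For the doses against HFC over weeks 3 to 18, limma called 0 of 16 member probes in HF5, where 0% of 33711 probes were called (1465 unadjusted, and 610 by the methods' t-test). It called 0 of 16 in HF20, where 0% were called (485 and 323 unadjusted), and 0 of 16 in HF75, where 0% were called (610 and 220 unadjusted). With no probe called anywhere, these counts say nothing particular about contractile genes.

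The doses were described in the same way. The mean of the fast genes differed from HFC by 0.38 in HF5 (SD 2.78, n = 6 weeks), -0.09 in HF20 (SD 2.56) and -0.99 in HF75 (SD 1.69). The HF5 value rested on week 12 and was -0.59 without it. Without week 9 the means were 1.09 in HF5, 0.83 in HF20 and -0.33 in HF75. HFC W9, which these contrasts share, is among the arrays with high contractile genes. The slow genes differed by 1.03 in HF5 (SD 2.27), which was 0.16 without week 12, by 0.60 in HF20 (SD 1.42) and by 0.48 in HF75 (SD 0.86), and each dose mean was smaller than its SD. The 3 dose contrasts share the HFC arrays. HF5 W12 was the dimmest array of the study, with a 75th percentile of 25.8 scanner units against 88.4 to 1983 on the others and 41.1% of probes well above background. The lowest level that was well above background there was -2.75, and all 10 members lay above it, from 1.56 for Tnnc1 to 5.18 for Acta1. Of 6 reference genes 2 were high there too, Actb by 4.12 and Rplp0 by 2.51. The part of these array properties in the members' values was not tested.

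Other genes of muscle were examined as lists of relatives of the members. Of 11 other fast fibre genes, 10 were high on LFC W6 and 10 on HF5 W12, and 4 to 6 on the 4 other week 6 arrays. The other 27 arrays, outside the 11, had at most 2. Among them Pvalb, the calcium buffer of fast fibres, was 7.41 log2 above its median on LFC W6, 7.99 on HF5 W12 and 4.45 to 5.51 on the other week 6 arrays. Myoz1, a Z disc protein of fast fibres, was 5.71, 4.47 and 1.86 to 2.16 above, and Tnnc2, fast troponin C, 4.50, 6.28 and 2.29 to 2.67 above. Pvalb was well above background on 22 of 38 arrays.

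The other slow fibre genes did not all behave like Myh7 and Tnnc1. Of 10, 8 were high on LFC W6 and 8 on HF5 W12, but 3 were high on HFC W6 and on HF5 W6, 4 on HF20 W6 and 6 on HF75 W6. At most 4 were high on any of the 27 arrays outside the 11. Csrp3, a Z disc protein, was 2.74 to 5.19 log2 above its median on those 4 arrays. Myl2, the slow and ventricular regulatory light chain, was 0.23 above on HFC W6, 1.46 on HF5 W6, 2.41 on HF20 W6 and 3.33 on HF75 W6, and it reached 9.39 on LFC W6 and 10.06 on HF5 W12. Tnni1, slow troponin I, lay between 1.35 and 2.27 above on those 4 arrays. Csrp3, Myl2 and Tnni1 were well above background on 13, 15 and 19 of 38 arrays, so their medians lie near background. More widely detected genes of this list went different ways. Myl3, well above background on 36 of 38 arrays, lay 3.19 to 3.74 above its median on those 4 arrays. Tnnt1 and Casq2, well above background on all 38, deviated by -2.99 to -2.02 and by -0.632 to 0.035. The slow genes thus did not move together on the 4 high fat arrays of week 6. By the means of the members, the split of slow from fast genes on those 4 arrays was smallest on HF75 W6.

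Genes shared by both fibre types followed in part. Of 15 sarcomere and Z disc genes, 12 were high on LFC W6, 8 on HF5 W12 and 3 to 5 on the other week 6 arrays, against at most 4 on the 27 arrays outside the 11. Xirp2, which sits at fibre ends and the Z disc, was 10.08 above on LFC W6, 8.78 on HF5 W12 and 5.06 to 5.96 on the others. Of 14 genes of excitation, calcium handling and energy, 12 were high on LFC W6, 12 on HF5 W12 and 2 to 4 on the other week 6 arrays, against at most 2 on those 27. Trdn, triadin of the calcium release unit, was 7.53 above on LFC W6 and 1.57 to 3.42 on the other week 6 arrays. Sln, a regulator of the calcium pump that slow fibres and atria use, was 5.69 above on LFC W6 and 5.32 on HF5 W12, and lay between -0.67 and 1.73 on the other week 6 arrays.

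Myh8, the perinatal myosin, was 6.11 above its median on LFC W6 and 5.54 on HF5 W12, while Myh3, the embryonic myosin, was 6.55 above on HF5 W12 and 1.14 on LFC W6. Pax7, the factor of muscle satellite cells, was 6.27 above its median on HF5 W12 and 5.42 on LFC D10. It was 3.88 above on HF20 W18 and 3.12 on LFC D6 but 0.87 on LFC W6. Of 8 myogenic regulators, 4 were high on LFC W6 and 1, Pax7, on HF5 W12. Myog, Myf6 and Cdh15 deviated by 4.54, 3.89 and 3.16 log2 on HF5 W12 and by 3.98, 4.47 and 3.57 on LFC W6, but were not well above background on the dim HF5 W12 array, so these counts show no split between the 2 arrays. The 27 arrays outside the 11 had at most 2.

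Genes whose pattern over the 38 arrays was most like the mean level of the fast genes were sought among 25869 genes well above background on at least 4 arrays. The 5 nearest were Myh8 (Pearson r = 0.94), Tnni2 (0.93), Pvalb (0.92), Cox6a2 (0.91) and Xirp2 (0.90). Without LFC W6 and HF5 W12 these values were 0.93, 0.90, 0.91, 0.85 and 0.84. For the mean level of the slow genes the 5 nearest were Myl2 (0.92), Tnni1 (0.91), Klhl31 (0.84), Myh6 (0.83) and Csrp3 (0.82). Without those 2 arrays they fell to 0.76, 0.64, 0.46, 0.45 and 0.60. The likeness of the slow set thus rested more on the pair of leading arrays than that of the fast set.

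Markers of other tissues moved with the contractile genes, in different ways on different arrays. The list of mesothelium and visceral fat genes (Msln, Upk3b, Lrrn4, Krt19, Wt1 and Tcf21, genes of the lining of the abdominal organs and of visceral fat) had a mean level between -5.73 and -2.99 on LFC D6, LFC D10, HFC W6, HF5 W6, HF20 W6, HF75 W6 and HF5 W12. These 7 arrays are all among the 11 with high contractile genes. On LFC W6, LFC W12, HFC W9 and HF20 W18 the list lay between -0.67 and 0.95, and on the other 27 arrays between -1.61 and 2.52. Upk3b, for example, stood at -7.52 on HFC W6, -8.43 on HF5 W6 and -8.75 on HF20 W6 against a median of 0.06. The part of these markers in the contractile gene levels was not tested.

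Genes of the male tract were high on LFC W6 and in part on HFC W6. On LFC W6 4 of 8 epididymis genes and 5 of 6 testis and sperm genes were high, Crisp1 by 3.09 and Prm2, a sperm protamine, by 4.16. On HFC W6, 3 of 8 epididymis genes and no testis and sperm gene were high. Crisp1, a secretory protein of the epididymis, deviated from its median by 2.42 log2 on HFC W6 but by -11.54 on HF5 W6, -11.91 on HF20 W6 and -9.98 on HF75 W6. On the 27 arrays outside the 11, a median of 3 and at most 8 epididymis genes were high, and at most 6 testis and sperm genes. Their part in the contractile gene levels was not tested.

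HF5 W12, LFC D6 and LFC D10 carried genes of brown fat. Of 9, 7 were high on HF5 W12, 7 on LFC D6, 8 on LFC D10 and 5 on LFC W12, and at most 4 on any of the 27 arrays outside the 11. Cox8b, Cox7a1 and Cpt1b of this list are also used by muscle, but Ucp1, the uncoupling protein of brown fat, was 11.55 above its median on HF5 W12, 9.73 on LFC D10 and 8.45 on LFC D6, and it was 0.64 above on LFC W6 and between -1.24 and 1.38 on the other week 6 arrays. LFC D6 and LFC D10 also had 4 of 4 erythroid genes high. Their part in the contractile gene levels was not tested.

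LFC W12 and HFC W9 had 5 of 9 adipocyte genes high each, LFC D6 had 6 and HF5 W12 had 3, against at most 7 on the 27 arrays outside the 11. On LFC W12 and HFC W9 genes of smooth muscle lay low, by a mean deviation of -2.29 and -2.70 log2 over 9 genes. Cnn1, calponin of smooth muscle, deviated by -5.08 and -5.77 from its median on them. On the 4 high fat arrays of week 6 no smooth muscle gene of 9 was high, and on LFC W6 none was. On HF5 W12 Actg2, Synpo2 and Tagln were high, by 2.6, 2.3 and 2.0 log2, though Tagln was saturated on 25 arrays. Cardiac genes were at most 1 of 10 high on any of the 11 arrays. On HF5 W12 that gene was Mybpc3, cardiac myosin-binding protein C (3.80), while Myh6 and Nppb deviated by 4.26 and 2.87 log2 there without being well above background. On LFC W6 it was Myh6, a cardiac myosin heavy chain and the neighbour of Myh7, at 8.76 log2 above its median. Tnnt2, cardiac troponin T, deviated by -0.74 from its own median there.

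**Figure D5:**
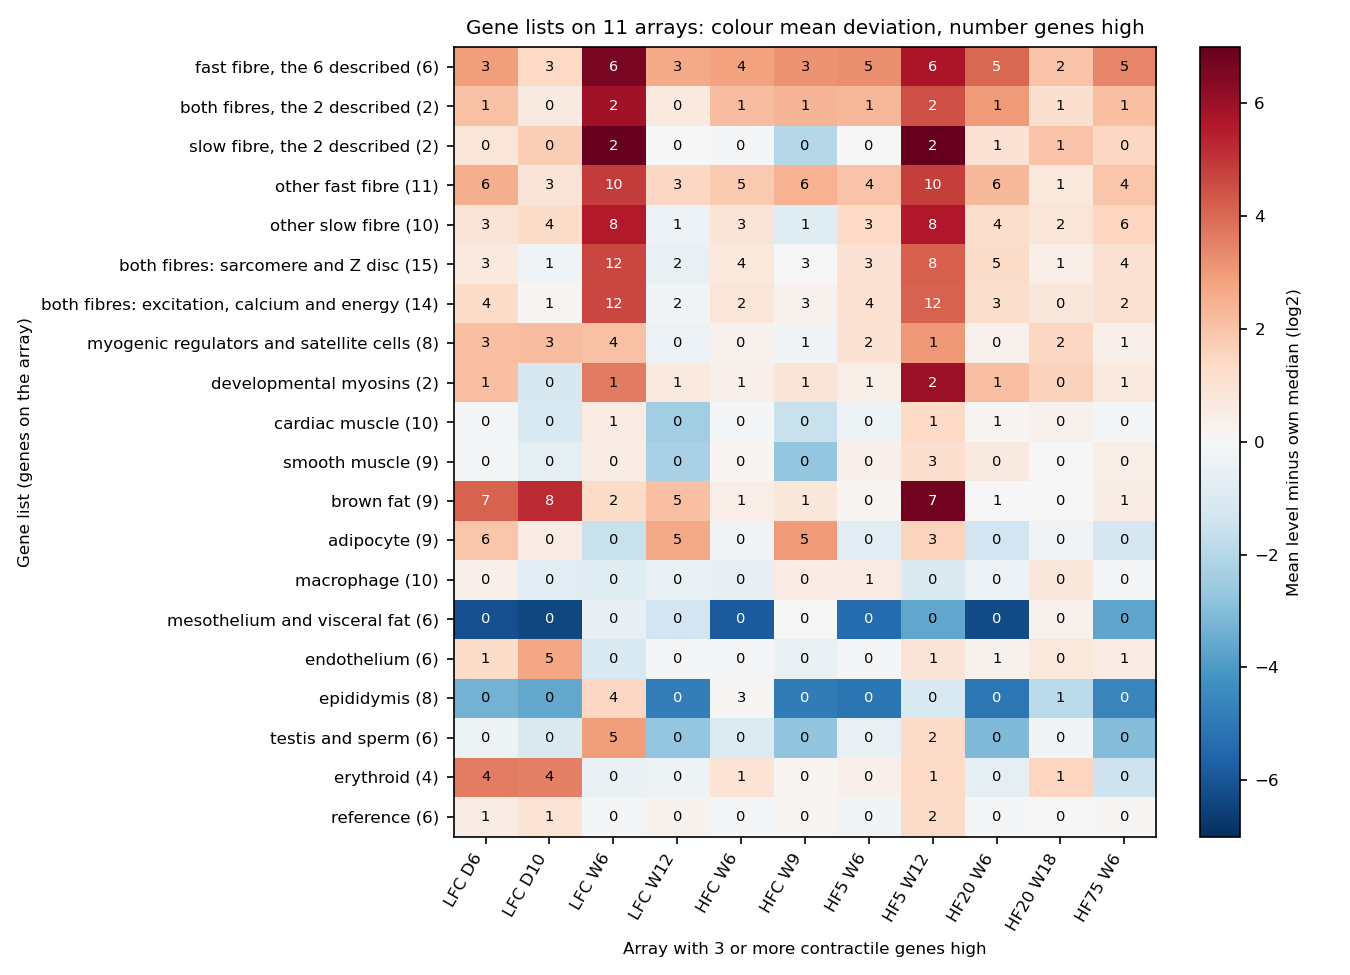
Mean log2 difference from each gene's own median (colour) and number of genes high (digits) for each gene list (rows, with the number of its genes) on the 11 arrays with 3 or more contractile genes high (columns). Muscle lists are red on LFC W6 and HF5 W12, brown fat on HF5 W12, LFC D6 and LFC D10, and the mesothelium and visceral fat list is blue on 7 of the 11.

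Scan days and slides were set beside these levels. The 5 week 6 arrays lay on 5 slides, each of which held no other array of week 6. LFC, HFC, HF5 and HF20 of week 6 were scanned on 1 day and HF75 W6 on another, on which no other array was scanned, and its fast genes were 3.42 log2 above their medians. The week 6 arrays of 4 diets thus share a time point and a scan day that cannot be told apart, while HF75 W6 shares the time point without the day. LFC W6 was the dimmest array of week 6, with a 75th percentile of 901.5 scanner units against 1029 to 1287 on the others, and 67.0% of its probes were well above background against 67.7% to 72.5%.

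The fast myosins Myh1, Myh2 and Myh4 lie on chromosome 11, Myh7 and Tnnc1 on chromosome 14, Ckm and Mylpf on chromosome 7 and Acta1 on chromosome 8. Promoter sequences from RefSeq on the GRCm38.p6 build were available for 8 of the 10 genes, and the 250 bases before the start are printed for 5 of them to compare the fast cluster with Acta1 and the slow Myh7. Capitals mark CANNTG (the E box that myogenic factors read), the MEF2 site, the CArG box and TATAAA, searched on both strands. The Myh2 window held none of them, and 1 of the 2 Myh7 windows of the table is shown.
Myh1 promoter, chr11:67199852-67200101, plus strand: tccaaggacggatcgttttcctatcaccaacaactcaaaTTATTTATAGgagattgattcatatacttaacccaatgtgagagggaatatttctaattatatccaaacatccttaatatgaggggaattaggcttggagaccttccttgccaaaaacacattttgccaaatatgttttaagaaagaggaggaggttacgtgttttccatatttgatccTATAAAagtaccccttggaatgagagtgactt
Myh2 promoter, chr11:67170777-67171026, plus strand: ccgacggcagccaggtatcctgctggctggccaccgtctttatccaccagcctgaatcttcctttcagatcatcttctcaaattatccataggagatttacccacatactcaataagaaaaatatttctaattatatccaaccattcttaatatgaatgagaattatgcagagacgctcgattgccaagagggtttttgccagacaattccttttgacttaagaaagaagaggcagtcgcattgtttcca
Myh4 promoter, chr11:67237562-67237811, plus strand: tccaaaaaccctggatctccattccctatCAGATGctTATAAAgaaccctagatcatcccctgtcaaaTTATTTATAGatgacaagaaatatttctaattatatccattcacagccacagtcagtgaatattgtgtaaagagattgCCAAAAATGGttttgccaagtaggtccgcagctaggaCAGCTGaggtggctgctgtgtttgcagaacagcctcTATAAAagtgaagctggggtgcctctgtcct
Acta1 promoter, chr8:123894776-123895025, minus strand: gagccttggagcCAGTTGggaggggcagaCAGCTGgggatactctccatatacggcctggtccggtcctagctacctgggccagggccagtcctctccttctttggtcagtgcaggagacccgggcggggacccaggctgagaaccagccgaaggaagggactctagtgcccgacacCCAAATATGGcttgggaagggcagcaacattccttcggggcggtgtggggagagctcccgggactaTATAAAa
Myh7 promoter, chr14:54994550-54994799, minus strand: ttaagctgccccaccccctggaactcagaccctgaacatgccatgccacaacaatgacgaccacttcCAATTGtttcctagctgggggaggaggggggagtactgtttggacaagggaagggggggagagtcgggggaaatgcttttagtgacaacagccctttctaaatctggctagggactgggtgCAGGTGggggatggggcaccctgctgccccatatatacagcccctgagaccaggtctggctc
CANNTG was found in 6 of the 8 genes and in 66.2% of all 32851 promoters, so its presence distinguishes little. CAGCTG, which is a form of CANNTG and is counted in it too, was found in Acta1, Ckm, Myh4 and Mylpf, and in 13% of all promoters. A MEF2 site was found in Myh1 and Myh4 and in 2.92% of all promoters, and in those genes it overlaps a TATAAA read on the opposite strand. A CArG box was found in Acta1 and Myh4 and in 1.47% of all promoters, and TATAAA in Acta1, Myh1 and Myh4 and in 12.4%. Myh1, Myh2 and Myh4 share the run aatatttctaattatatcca of 20 bases, which is in no other promoter of the table. Myh7 shared at most 9 bases with any of them. These are descriptions of the letters and not of bound factors.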

How the data were processed

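Per the file headers, the deposited scanner files hold intensity values background-subtracted within each array and not scaled between arrays. Agilent Feature Extraction made them, in version 9.1 per the labels' processing notes, while the file headers name another version. The authors' deposited series table holds log2 ratios of each array to the LFC array of its time point and served as an alternative. Spots marked as outliers were left out, levels were set against the 75th percentile of each array, and saturated values were kept as lower bounds. Values of the 3 dosed week 9 arrays are rounded in their files. Precision is limited by how many arrays there are.

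Probes well above background on a share of 0.5 of the arrays of a diet were fitted with limma 3.58.1 in R 4.3.3, two-sided, with time point as a block, since each time point holds 1 array of each diet, and with Benjamini-Hochberg adjustment (threshold 0.05). Doses followed the source names, with which another label conflicts on 4 arrays. A gene's probe of highest mean level represents it. The scripts were tested on simulated data.

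The members and lists were chosen with earlier results of these data known. The genes named are the 10 members, at most 4 genes of each other list by the range of their level, and the 5 genes most like the fast and the slow mean. Emr1, Cd68 and Lyz2, Cox8b, Cox7a1 and Cpt1b, Msln, Wt1, Krt19, Lrrn4 and Tcf21 were also named, and Myog, Myf6, Cdh15, Mybpc3, Nppb, Actb and Rplp0 after their values were seen, to describe their lists. Outside the range rule, Myl3, Tnnt1, Casq2, Acta2, Actg2, Synpo2 and Tagln were named as well. Current symbols came from a RefSeq gene table.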

Additional observations from a re-analysis of the deposited data

Results flagged for a closer look

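In 10 of 50 groups of a contractile gene in 1 diet, 1 array stood far from the others by Dixon's gap test. Chance flags about 1 in 20 groups, but the genes were chosen from these same levels and move together, so the number is a description and is not read against chance. LFC W6 stood high for Myh1 (level 6.22), Myh2 (5.33), Actn3 (4.11), Acta1 (6.36), Myh7 (6.18) and Tnnc1 (1.29). HF5 W12 stood high for Myh7 (3.64) and Tnnc1 (1.56). HFC W12 stood high for Tnnc1 (-2.17), and HFC W9 stood low for Myh7 (-6.87), where it was not well above background.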

How the results depend on the processing

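All 4 comparisons across probes gave 0 calls under limma with time point as a block and under every alternative run, including leaving out each time point in turn (range 0 to 0). Without the replicate block there were 0 calls (1109 unadjusted for HFC against LFC). Without LFC W6 and HF5 W12, an alternative chosen after seeing the data, there were 0 calls and 3977 unadjusted for HFC against LFC. At an unadjusted p under 0.05 between HFC and LFC, 3 of the 16 contractile probes passed with quantile normalization (2517 of 31030 probes in all), 4 without W0 (2858 of 30513) and 7 without W9 (2739 of 31021), against 0 in the main setting, and none passed adjustment. The mean HFC minus LFC of the fast genes ran from -1.25 to -0.82 over the alternatives and from -1.55 to -0.69 when 1 time point was left out, and that of the slow genes from -1.13 to -0.68 and from -1.25 to -0.13. The 11 arrays with 3 or more genes high were 8 with normexp background correction (without LFC D10, LFC W12 and HF20 W18), 16 at a limit of 1 log2 and 9 at 3 log2. With 1 array for each diet and time point, no value has a replicate of its own, and saturated or dim spots give bounds only.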
